A study of Rattus norvegicus with 111 samples.

Results

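The 3 carnitine palmitoyltransferase genes of rat liver are described here: Cpt1a (ENSRNOG00000014254), Cpt1b (ENSRNOG00000010438) and Cpt2 (ENSRNOG00000012443), 3 of the 20311 genes listed in each count table. They were picked by their Ensembl gene IDs and not by a cutoff on their values, but earlier results of these data were known at the time. Timed-pregnant Sprague-Dawley dams received PFO5DoA or PFO4DA by mouth each day from gestational day 18 to 22, in 0.5% Tween-80, which the controls received alone, and maternal and fetal liver were sampled a few hours after the last dose. Both chemicals are perfluoroalkyl ether carboxylic acids, and PFO5DoA is the longer homologue of PFO4DA by a single difluoromethoxy unit. RNA was read with TempO-Seq, in which a pair of probes per target joins on the RNA and the joined products are sequenced and counted. Doses are daily, in mg/kg/d, and are written as mg/kg below. PFO5DoA was given at 0 mg/kg to 6 dams, of which 5 were used, at 0.1 mg/kg to 2 dams, at 0.3 and 1 mg/kg to 3 dams each, and at 3, 10 and 30 mg/kg to 4 dams each. PFO4DA was given at 0 mg/kg to 6 dams and at 0.3, 1, 3, 10, 30 and 62.5 mg/kg to 4 dams each. At 30 mg/kg PFO5DoA, 1 of the 4 dams (dam 2286) had a maternal library alone, so the fetal group held 3 libraries. Per the labels, dams at this dose weighed less than controls at the end of dosing and 1 of them showed signs of fetal toxicity, and the dams given 62.5 mg/kg PFO5DoA were killed early and did not enter the study's expression analysis.

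The column names gave the dam of each library but not whether it was the maternal or the fetal liver. For each of 54 dams with 2 usable libraries, the library with the higher Pearson correlation of log2(CPM + 1) over all genes with the library of dam 2286, labelled maternal, was taken as maternal, and the other as fetal. Maternal libraries by this rule correlated with it at 0.943 to 0.988 and fetal ones at 0.861 to 0.923, and within a dam the gap was 0.052 to 0.111. The life stages named below are therefore assigned from expression and not read from the labels, and a difference in level between them is given without a test. A control dam of PFO5DoA (dam 2279) was dropped, since 1 of its libraries held 45504 counts. The remaining 109 libraries of 55 dams held between 7133025 and 15254954 counts each. The dam was the replicate, with 1 fetal liver library per dam. In order of dam identifier, the doses climb from the controls upward 2 times per chemical. Each such stretch, with its own controls, is called a run here. The split was inferred from this order and not read from a label, and the identifiers have no gap at it. PFO5DoA at 0.3 and 1 mg/kg stands in the first run alone, and the highest dose of each chemical in the second run alone. None of the 20311 IDs of the tables matched the gene table used here (0 matched), so the 3 symbols above rest on their Ensembl IDs alone and the label of the tissue was not checked against marker genes. In bulk liver, fewer cells of a type and less RNA per cell cannot be told apart.

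The carnitine palmitoyltransferases carry long-chain fatty acids into mitochondria. CPT1, on the outer mitochondrial membrane, joins the fatty acid to carnitine and is the step that malonyl-CoA inhibits, and CPT2, on the inner membrane, transfers it back to coenzyme A for beta oxidation. Cpt1a encodes the form that predominates in adult liver, and Cpt1b the form best known from heart, skeletal muscle and brown fat. In rodent liver, Cpt1a, Cpt1b and Cpt2 are known targets of the nuclear receptor PPAR alpha, which fatty acids and several perfluorinated acids activate. Fatty acid oxidation in liver rises around birth, when milk replaces glucose as the main fuel.

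Promoter sequence is shown because the genes below rose together. The RefSeq promoter table (build GRCr8) held a window for 2 of the 3 genes, Cpt1a and Cpt2, running from 250 bases before to 50 bases after the gene start. The windows lie at chr1:209995910-209996209 on the plus strand for Cpt1a and at chr5:127910769-127911068 on the minus strand for Cpt2. They are written 5′ to 3′ with each CpG in capitals.
Cpt1a: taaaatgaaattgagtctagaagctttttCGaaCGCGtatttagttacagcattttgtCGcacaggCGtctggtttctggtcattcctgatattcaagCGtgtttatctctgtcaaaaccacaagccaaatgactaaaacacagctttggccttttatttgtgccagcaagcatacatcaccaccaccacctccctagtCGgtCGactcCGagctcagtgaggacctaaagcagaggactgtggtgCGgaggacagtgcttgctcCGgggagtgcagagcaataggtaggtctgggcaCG
Cpt2: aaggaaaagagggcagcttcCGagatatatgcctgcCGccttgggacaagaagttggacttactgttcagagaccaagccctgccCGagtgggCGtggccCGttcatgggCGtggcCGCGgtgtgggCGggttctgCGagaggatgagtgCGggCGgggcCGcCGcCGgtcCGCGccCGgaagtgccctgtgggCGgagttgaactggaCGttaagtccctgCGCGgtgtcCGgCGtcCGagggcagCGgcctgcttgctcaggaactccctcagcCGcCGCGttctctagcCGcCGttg
The Cpt1a window held 12 CpGs at a GC content of 48.3%, and the Cpt2 window held 31 CpGs at 66.7%, against medians of 7 CpGs and 51.7% over the 33469 promoter windows of the table. The hexamer AGGTCA, which nuclear receptors bind, was searched on both strands, alone and as a pair in the same direction with 1 base between its copies. Neither window held these letters. Only exact copies inside these windows were sought, so variant copies and sites elsewhere were not searched, and Cpt1b had no window. Among all windows 16.2% held at least 1 copy, and 0.0538% held the spaced pair. In the RefSeq order of genes Cpt1a lies between Mrpl21 and Tesmin, Cpt1b between Syce3 and Chkb, and Cpt2 between Czib and Slc1a7, and none of the 3 overlaps a neighbour. RefSeq also lists a gene named Cpt1al1, and whether the Cpt1a probe reads its RNA was not tested.

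Every change of these genes that passed the test was a rise, in both livers and under both chemicals. Cpt1b rose most, 35.9-fold in maternal and 29.4-fold in fetal liver at 30 mg/kg PFO5DoA. Cpt2 rose 5.72-fold in maternal liver at that dose and 1.45-fold in fetal liver. Cpt1a rose 3.32-fold in maternal and 2.30-fold in fetal liver. PFO4DA at its highest dose, 62.5 mg/kg, raised Cpt1b 12.8-fold in fetal liver, whereas in maternal liver Cpt1b was 1.80-fold its control level and did not pass the test. Cpt2 and Cpt1a rose 3.09-fold and 3.10-fold in maternal liver at 62.5 mg/kg PFO4DA. The test was edgeR's quasi-likelihood test, fitted over all genes of a liver and chemical with Benjamini-Hochberg adjustment, and a gene is called where this adjusted p was under 0.05. All 3 genes passed the filter on low counts in every fit.

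For PFO5DoA in maternal liver, 0 of the 3 genes were called at 0.3 mg/kg, where 0% of all 10615 tested genes were called. At an unadjusted p under 0.05, 2 of the 3 passed at that dose, against 562 of all 10615 genes. DESeq2 called 1 of the 3 (Cpt2), against 4 of all genes. At 1 mg/kg, 1 of the 3 was called, against 0.452% of all genes. All 3 were called at 3 mg/kg, against 2.65% of all genes, at 10 mg/kg, against 14%, and at 30 mg/kg, against 39.8%. The trend over dose was called for 3 of 3, against 42.2% of all genes. In fetal liver, 1 of the 3 was called at 0.3 mg/kg, against 0.113% of the 11509 genes tested. There all 3 were called at 1 mg/kg, against 2.4% of all genes, at 3 mg/kg, against 7.08%, at 10 mg/kg, against 14.7%, and at 30 mg/kg, against 29.9%. The fetal trend was called for 1 of 3, against 36% of all genes. The share of all genes called at 30 mg/kg is high in both livers, so a call there sets the 3 genes apart less than a call at 1 or 3 mg/kg does.

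For PFO4DA in maternal liver, edgeR called 0 of the 3 genes at 0.3, 1, 3 and 10 mg/kg, where 0%, 0%, 0% and 0.00974% of the 10263 tested genes were called. At an unadjusted p under 0.05, 1 of the 3 passed at 0.3 mg/kg, 0 at 1 and 3 mg/kg and 2 at 10 mg/kg. Of all genes, 269, 221, 285 and 825 passed at these 4 doses. DESeq2 called 0 of the 3 at each dose, against 4, 1, 0 and 24 of all genes. At 30 mg/kg 1 of the 3 was called, against 0.633% of all genes, and at 62.5 mg/kg 2 of the 3 were, against 2.46%. The maternal trend was called for 2 of 3, against 2.8% of all genes. In fetal liver edgeR called 0 of the 3 at 0.3, 1 and 3 mg/kg, against 0%, 0% and 0.304% of the 11172 genes tested. At an unadjusted p under 0.05 these counts were 0, 0 and 2, against 1125, 876 and 781 of all genes. DESeq2 called 0 of the 3 at each dose, against 0, 5 and 60 of all genes. At 10 mg/kg 2 of the 3 were called, against 2.64% of all genes, and all 3 were called at 30 mg/kg, against 6.44%, and at 62.5 mg/kg, against 10.6%. The fetal trend was called for 3 of 3, against 18.9% of all genes.

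Cpt1a, the liver form of the outer membrane enzyme, was raised to a similar level by every PFO5DoA dose from 3 mg/kg in maternal liver, and its spread between dams narrowed. Levels are given as CPM, counts relative to the library total after TMM scaling within a chemical and life stage. The 5 control livers held 11.5, 24.0, 27.5, 27.8 and 38.8 CPM. At 0.3 mg/kg the 3 livers held 25.0, 42.8 and 65.3 CPM and at 1 mg/kg 26.7, 37.0 and 39.8 CPM. Both of these groups overlapped the controls. At 3 mg/kg the 4 livers held 65.5, 72.0, 75.7 and 87.4 CPM, at 10 mg/kg 77.0, 78.6, 79.8 and 87.1 CPM, and at 30 mg/kg 82.4, 84.6, 87.6 and 89.8 CPM. From 3 mg/kg upward no treated liver was as low as any control. The coefficient of variation over dams was 3.81% at 30 mg/kg, against 37.8% in controls. On the log2 scale, fold changes against controls were 0.77 (SE 0.25, adjusted p = 0.894) at 0.3 mg/kg, 0.41 (SE 0.26, adjusted p = 0.615) at 1 mg/kg, and 1.55, 1.65 and 1.73 (SE 0.24 each) at 3, 10 and 30 mg/kg. The last 3 were called, with adjusted p of 0.00015, 2.79e-05 and 4.11e-06. In the first run of dams alone the fold change at 3 mg/kg was 1.38 and its call was lost (adjusted p = 0.0643), whereas in the second run alone it was 1.97 (adjusted p = 0.00195).

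**Figure D1:**
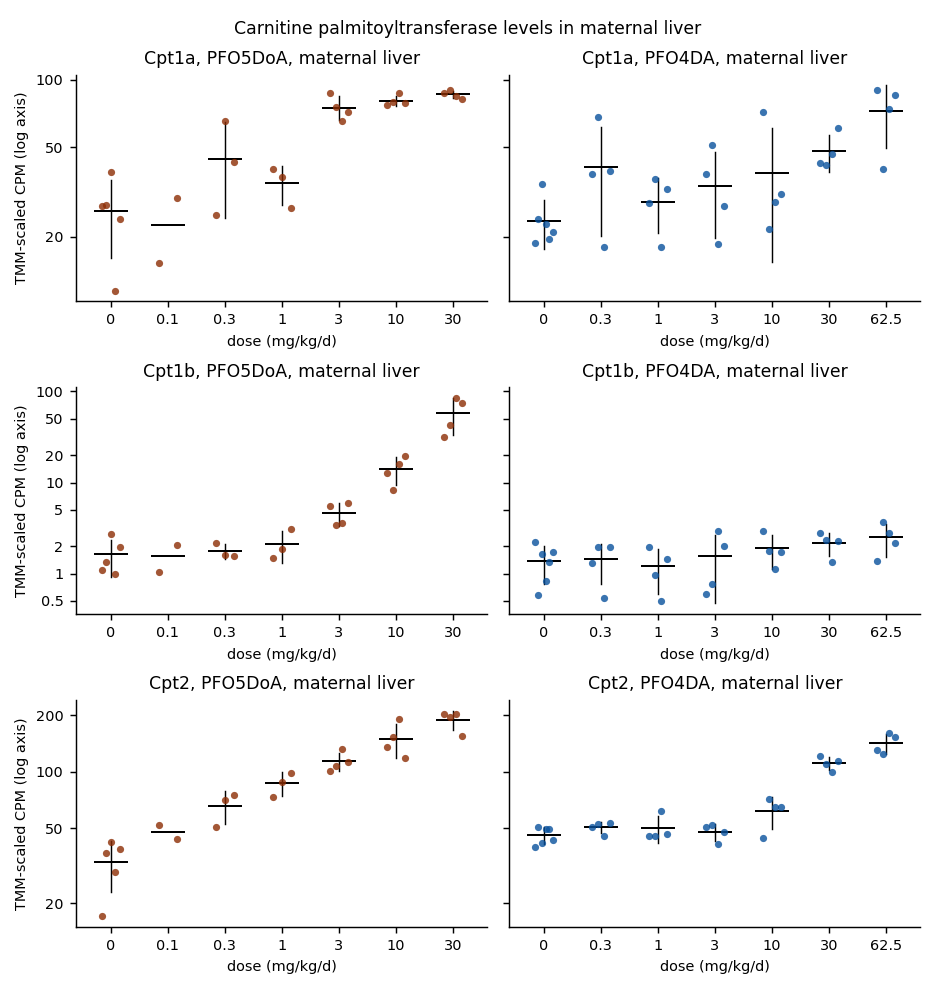
Levels in maternal liver by dose (mg/kg/d, evenly spaced), PFO5DoA on the left and PFO4DA on the right, as TMM-scaled CPM on a log axis. Each point is the liver of a dam, the thick bar the group mean and the thin line 1 SD either side, not drawn for the 2 dams at 0.1 mg/kg. Cpt1b climbs at each step from 1 to 30 mg/kg PFO5DoA, to 31.9 to 85.5 CPM, and stays at or under 3.70 CPM under PFO4DA.

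In fetal liver Cpt1a was higher at PFO5DoA doses from 1 mg/kg, and its fold change was no larger at the doses above that one. The fetal controls held 20.9 to 49.7 CPM, with a median of 34.5 CPM. At 0.3 mg/kg the livers held 15.5, 47.7 and 69.3 CPM, at 1 mg/kg 59.5, 113 and 136 CPM, at 3 mg/kg 56.5 to 128 CPM, at 10 mg/kg 74.4 to 94.2 CPM and at 30 mg/kg 64.0, 76.0 and 92.8 CPM. Each of the 4 doses from 1 mg/kg lay wholly above the controls. The log2 fold change was 1.63 (SE 0.36) at 1 mg/kg, 1.40 (SE 0.34) at 3 mg/kg, 1.30 (SE 0.34) at 10 mg/kg and 1.20 (SE 0.36) at 30 mg/kg, with adjusted p of 0.0171, 0.0135, 0.012 and 0.0166. The slope on log2(dose + 1) was 0.19 (SE 0.09, adjusted p = 0.102). These fetal calls rest on few dams. The call at 1 mg/kg was lost without dam 2272 (adjusted p = 0.152), dam 2273 (adjusted p = 0.0929) or dam 2278 (adjusted p = 0.0519), that at 3 mg/kg without dam 2281 (adjusted p = 0.0586) and that at 30 mg/kg without dam 2287 (adjusted p = 0.0787), while the slope was called without dam 2272 (adjusted p = 0.0319). In the first run of dams alone the fold changes were 1.51, 1.18 and 1.15 at 1, 3 and 10 mg/kg (adjusted p = 0.211, 0.267 and 0.211), and in the second run alone 1.70, 1.55 and 1.43 at 3, 10 and 30 mg/kg (adjusted p = 0.104, 0.083 and 0.0337).

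Under PFO4DA, Cpt1a was called at the highest dose alone in maternal liver and at the 2 highest doses in fetal liver. The 6 maternal controls held 18.6 to 34.2 CPM (median 21.9 CPM). Maternal log2 fold changes at 0.3, 1, 3 and 10 mg/kg were 0.81, 0.30, 0.54 and 0.71, and none was called. Of the 4 livers at each of these doses, 3, 1, 2 and 1 lay above every control, and each group overlapped the controls. The 4 livers at 30 mg/kg held 41.8, 42.5, 46.6 and 61.0 CPM, and those at 62.5 mg/kg held 40.1, 73.8, 85.6 and 90.2 CPM. Both groups lay above every control. The log2 fold change was 1.03 (SE 0.33, adjusted p = 0.28) at 30 mg/kg and 1.63 (SE 0.33, adjusted p = 0.00451) at 62.5 mg/kg. When 30 mg/kg and its controls were fitted alone, the fold change of 1.03 passed the test (adjusted p = 0.0041). The slope on log2(dose + 1) was 0.20 (SE 0.04, adjusted p = 0.0061).

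The fetal controls of PFO4DA were the most variable group for Cpt1a, at 19.2, 20.7, 23.6, 42.2, 55.9 and 94.6 CPM, a coefficient of variation of 68.4%. At 30 mg/kg the fetal livers held 61.1, 72.7, 115 and 179 CPM and at 62.5 mg/kg 74.1, 87.5, 100.2 and 135 CPM. Over the 6 doses 6 of 24 treated fetal livers lay above every control, and no dose was clear of the controls. The log2 fold changes of 1.31 (SE 0.40, adjusted p = 0.0465) and 1.21 (SE 0.40, adjusted p = 0.0498) were just past the threshold. The first call was lost in 22 and the second in 25 of the 30 fits that each left out 1 dam, with adjusted p up to 0.219 and 0.166. Both were also lost without the filter on low counts (adjusted p = 0.105 and 0.112) and when the dose and its controls were fitted alone (adjusted p = 0.151 and 0.108). The call at 30 mg/kg was lost within the first run (1.20, adjusted p = 0.649) and within the second run (1.50, adjusted p = 0.171). The slope over all doses was called, at 0.26 (SE 0.05, adjusted p = 0.000718).

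Cpt1b, the muscle form of the outer membrane enzyme, had low levels in maternal liver and climbed with each PFO5DoA dose from 3 mg/kg. The 5 maternal controls held 1.00, 1.09, 1.34, 1.97 and 2.70 CPM. At 0.3 mg/kg the livers held 1.55, 1.61 and 2.14 CPM and at 1 mg/kg 1.50, 1.84 and 3.07 CPM, both overlapping the controls. At 3 mg/kg they held 3.43, 3.62, 5.56 and 5.95 CPM, at 10 mg/kg 8.36, 12.8, 15.9 and 19.6 CPM, and at 30 mg/kg 31.9, 43.1, 74.5 and 85.5 CPM. None of the last 3 groups overlapped the dose below it. The log2 fold change was 0.11 (SE 0.41) at 0.3 mg/kg, 0.37 (SE 0.40) at 1 mg/kg, 1.52 (SE 0.35) at 3 mg/kg, 3.12 (SE 0.34) at 10 mg/kg and 5.16 (SE 0.34) at 30 mg/kg. The adjusted p was 0.0137 at 3 mg/kg, 4.09e-07 at 10 mg/kg and 5.41e-11 at 30 mg/kg. The slope was 1.07 (SE 0.05, adjusted p = 7e-14) per unit of log2(dose + 1). The call at 3 mg/kg was lost without dam 2263, 2274 or 2282 (adjusted p = 0.0553, 0.0507 and 0.0524) and within either run, at 1.40 in the first (adjusted p = 0.188) and 1.66 in the second (adjusted p = 0.441).

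In fetal liver Cpt1b responded at lower PFO5DoA doses. The fetal controls held 6.30, 6.46, 6.59, 8.60 and 9.95 CPM, and the livers at 0.3 mg/kg held 17.5, 17.6 and 19.5 CPM. At 1 mg/kg they held 40.1, 53.4 and 54.1 CPM, at 3 mg/kg 88.7, 103, 113 and 195 CPM, at 10 mg/kg 124, 159, 208 and 258 CPM, and at 30 mg/kg 215, 216 and 262 CPM. All 17 fetal livers at these 5 doses lay above every control. At 0.1 mg/kg, which entered no test, the 2 fetal livers held 9.64 and 15.2 CPM, the lower of them within the control range. The groups at 1 and 3 mg/kg were clear of the dose below, whereas those at 3, 10 and 30 mg/kg overlapped in turn. The log2 fold changes were 1.26 (SE 0.24), 2.67 (SE 0.24), 4.01 (SE 0.24), 4.58 (SE 0.24) and 4.88 (SE 0.25) from 0.3 to 30 mg/kg, with adjusted p of 0.0396, 4.37e-07, 3.36e-10, 3.31e-11 and 7.74e-12. The call at 0.3 mg/kg was lost in 12 of the 22 fits that each left out 1 dam (adjusted p up to 0.217, without dam 2270). It was also lost when 0.3 mg/kg and its controls were fitted alone (adjusted p = 0.0739). At 3 and 10 mg/kg the fold change was 3.77 and 4.17 within the first run and 4.22 and 4.93 within the second.

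**Figure D2:**
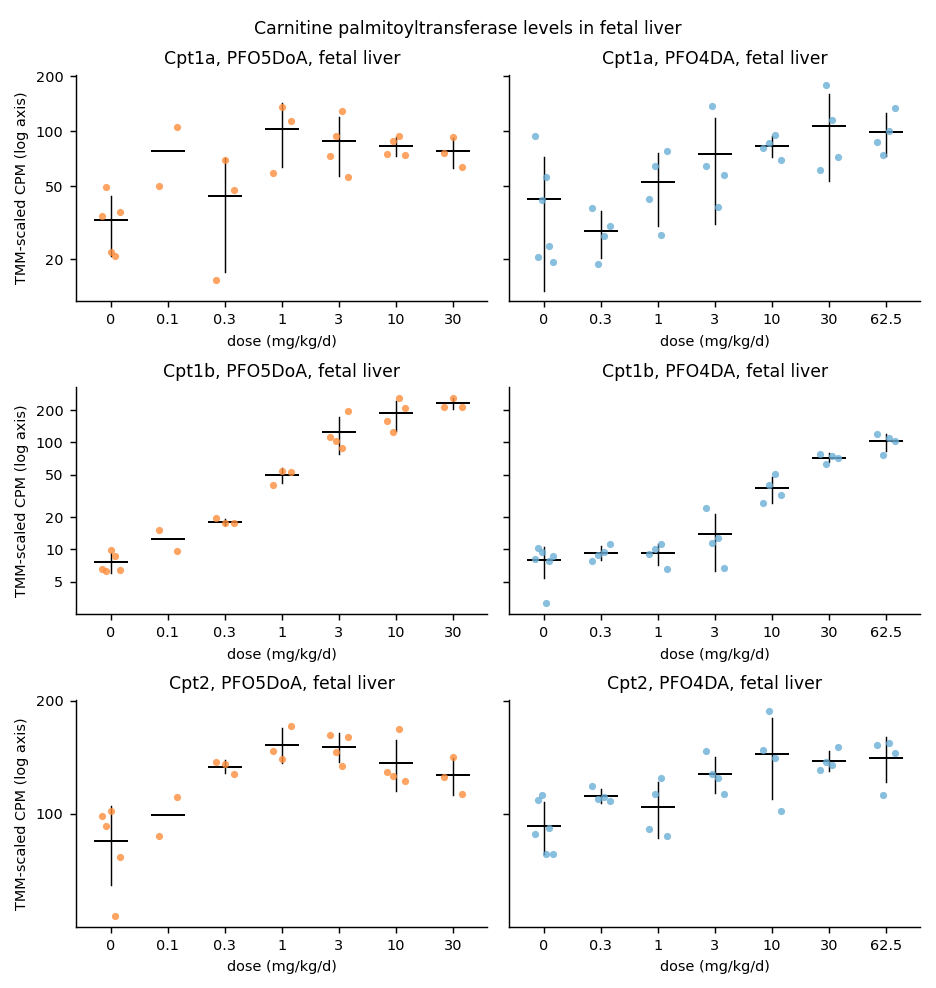
Levels in fetal liver by dose (mg/kg/d, evenly spaced), PFO5DoA on the left and PFO4DA on the right, as TMM-scaled CPM on a log axis. Each point is the fetal liver library of a dam, the thick bar the group mean and the thin line 1 SD either side, not drawn at 0.1 mg/kg. Cpt1b reaches 215 to 262 CPM at 30 mg/kg PFO5DoA and 75.5 to 119 CPM at 62.5 mg/kg PFO4DA, whereas Cpt1a overlaps its controls at each of the 6 PFO4DA doses.

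Under PFO4DA, Cpt1b was called in fetal liver from 10 mg/kg and at no dose in maternal liver. Maternal livers at 62.5 mg/kg held 1.36, 2.19, 2.81 and 3.70 CPM, against 0.582, 0.820, 1.33, 1.62, 1.74 and 2.23 CPM in maternal controls. No maternal dose was clear of the controls, and 7 of 24 treated livers lay above every control. The log2 fold change at 62.5 mg/kg was 0.85 (SE 0.43, approximate 95% interval 0.01 to 1.68). Its p in edgeR's test was 0.056 unadjusted and 0.368 adjusted, so the interval is narrower than the test implies. The slope was 0.15 (SE 0.05, adjusted p = 0.146). The counts behind these levels were 12 to 28 per library at 62.5 mg/kg and 5 to 20 in controls, which limits what could be detected. Fetal controls held 3.13, 7.79, 8.19, 8.61, 9.42 and 10.4 CPM. Fetal livers held 6.71, 11.6, 12.7 and 24.5 CPM at 3 mg/kg, 26.9 to 50.7 CPM at 10 mg/kg, 62.9, 71.7, 74.9 and 78.7 CPM at 30 mg/kg, and 75.5 to 119 CPM at 62.5 mg/kg. The doses from 10 mg/kg were clear of the controls. The fetal log2 fold changes were 0.80 (SE 0.27, adjusted p = 0.423) at 3 mg/kg, 2.23 (SE 0.26, adjusted p = 1.3e-06) at 10 mg/kg, 3.16 (SE 0.26, adjusted p = 6.9e-10) at 30 mg/kg and 3.68 (SE 0.27, adjusted p = 2.64e-11) at 62.5 mg/kg. Within runs the fold change at 30 mg/kg was 2.92 in the first and 3.48 in the second.

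Cpt2, the inner membrane enzyme, rose in a graded way in maternal liver and by less in fetal liver. The 5 maternal controls of PFO5DoA held 17.1, 29.5, 37.3, 39.1 and 42.3 CPM. Maternal livers held 50.8, 71.2 and 75.2 CPM at 0.3 mg/kg, 73.5, 88.1 and 98.5 CPM at 1 mg/kg, 101 to 132 CPM at 3 mg/kg, 118 to 189.6 CPM at 10 mg/kg and 155, 194, 202 and 203 CPM at 30 mg/kg. All 18 maternal livers at these 5 doses lay above every control. The log2 fold changes were 0.99 (SE 0.22, adjusted p = 0.373), 1.39 (SE 0.22, adjusted p = 0.00074), 1.79 (SE 0.20, adjusted p = 1.53e-06), 2.18 (SE 0.20, adjusted p = 2.84e-08) and 2.52 (SE 0.21, adjusted p = 1.52e-09) from 0.3 to 30 mg/kg. At 0.3 mg/kg, DESeq2 put the same fold change past the threshold (adjusted p = 0.0415). The call at 1 mg/kg was lost within the first run (1.44, adjusted p = 0.0829) and when that dose and its controls were fitted alone (1.39, adjusted p = 0.12). Within runs the fold change at 3 and 10 mg/kg was 1.70 and 2.17 in the first and 1.85 and 2.18 in the second.

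Fetal Cpt2 was called at PFO5DoA doses from 1 mg/kg, and its slope over dose was not called. The fetal controls held 53.4, 76.6, 92.7, 98.9 and 102 CPM, and the livers at 0.3 mg/kg held 127, 136 and 137 CPM. They held 140.1, 147 and 171 CPM at 1 mg/kg, 134 to 162 CPM at 3 mg/kg, 122 to 168 CPM at 10 mg/kg and 113, 125 and 142 CPM at 30 mg/kg. All 17 lay above every control, while the 2 fetal livers at 0.1 mg/kg held 87.5 and 111 CPM, the lower of them within the control range. The log2 fold change was 0.65 (SE 0.17, adjusted p = 0.336) at 0.3 mg/kg, 0.83 (SE 0.17, adjusted p = 0.00642) at 1 mg/kg, 0.80 (SE 0.15, adjusted p = 0.00182) at 3 mg/kg, 0.64 (SE 0.15, adjusted p = 0.00601) at 10 mg/kg and 0.53 (SE 0.17, adjusted p = 0.0192) at 30 mg/kg. The slope was 0.06 (SE 0.04, adjusted p = 0.299). The call at 1 mg/kg was lost without dam 2273 (adjusted p = 0.0802) and that at 30 mg/kg without dam 2287 (adjusted p = 0.107). Within the first run the fold change was 0.62, 0.60 and 0.34 at 1, 3 and 10 mg/kg (adjusted p = 0.012, 0.0125 and 0.106). Within the second run it was 1.17, 1.14 and 0.95 at 3, 10 and 30 mg/kg (adjusted p = 0.068, 0.0387 and 0.0224). The controls held 92.7, 98.9 and 102 CPM in the first run and 53.4 and 76.6 CPM in the second. Fold changes at 1 and 30 mg/kg over all dams thus compare doses of different runs. With the run as a covariate the slope was 0.12 (adjusted p = 0.0679). Fitted alone with their controls, the doses of 1, 10 and 30 mg/kg missed the threshold (adjusted p = 0.102, 0.0756 and 0.0918).

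Under PFO4DA, maternal Cpt2 was called at 30 and 62.5 mg/kg and not below. The 6 maternal controls held 40.0 to 50.8 CPM (median 46.5 CPM). Maternal livers held 41.2 to 52.3 CPM at 3 mg/kg, 44.7 to 71.7 CPM at 10 mg/kg, 100.1 to 122 CPM at 30 mg/kg and 124 to 160.0 CPM at 62.5 mg/kg. Both of the highest doses were clear of the controls and of the dose below. The log2 fold change was 0.42 (SE 0.12, adjusted p = 0.334) at 10 mg/kg, 1.27 (SE 0.12, adjusted p = 3.22e-08) at 30 mg/kg and 1.63 (SE 0.12, adjusted p = 9.57e-11) at 62.5 mg/kg. At 30 mg/kg it was 1.36 within the first run and 1.17 within the second (adjusted p = 0.0135 and 0.000906). In fetal liver Cpt2 was at 102 to 188 CPM at 10 mg/kg, 131 to 151 CPM at 30 mg/kg and 112 to 154 CPM at 62.5 mg/kg, above a control range of 77.9 to 112 CPM that the first and last of these groups overlapped. The fetal log2 fold changes were 0.62, 0.55 and 0.59 (SE 0.14 each, adjusted p = 0.0115, 0.014 and 0.00496). The slope was called in both livers, at 0.26 (SE 0.02, adjusted p = 2.07e-11) in maternal and 0.09 (SE 0.02, adjusted p = 0.000615) in fetal liver. The call at 10 mg/kg was lost without dam 2304 (adjusted p = 0.0861), when the dose and its controls were fitted alone (0.64, adjusted p = 0.0931) and within either run, at 0.62 (adjusted p = 0.172) and 0.27 (adjusted p = 0.608). The call at 30 mg/kg was lost within the first run, at 0.38 (adjusted p = 0.546), and held within the second, at 0.77 (adjusted p = 0.0366).

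**Figure D3:**
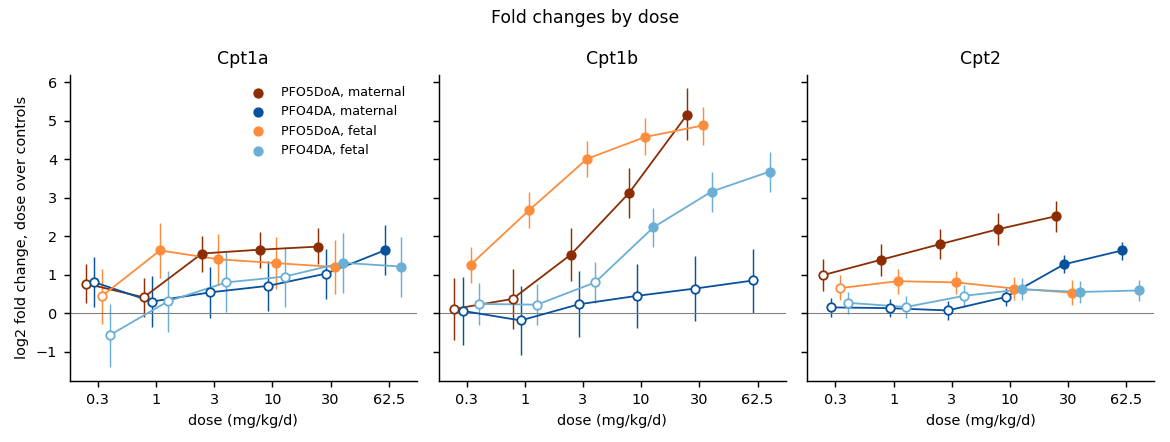
Log2 fold change against the controls of the same chemical and life stage, by dose (mg/kg/d), from edgeR's fit, with approximate 95% intervals of 1.96 standard errors. Filled points passed an adjusted p of 0.05 and open points did not. Cpt1b under PFO5DoA reaches 5.16 in maternal and 4.88 in fetal liver, and maternal Cpt1b under PFO4DA stays at or under 0.85.

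Rises at the highest doses were also called without use of the life stage. With both libraries of a dam thinned to equal depth and summed, Cpt1b rose by 5.00 on the log2 scale at 30 mg/kg PFO5DoA (adjusted p = 6.56e-13) and by 3.52 at 62.5 mg/kg PFO4DA (adjusted p = 7.71e-12). For the summed livers Cpt2 rose by 1.41 (adjusted p = 1.77e-07) and 1.02 (adjusted p = 1.35e-07), and Cpt1a by 1.50 (adjusted p = 0.000182) and 1.37 (adjusted p = 0.00693), at the same doses. A sum weighs the liver with more of the RNA more heavily, which for Cpt1b was the one assigned as fetal.

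The chemicals were compared at the 5 shared doses as the fold change under PFO5DoA minus that under PFO4DA, in a joint fit of both tables for each life stage, so that 15 differences were tested per liver with adjustment over all genes of a contrast. The doses are equal by mass. PFO5DoA at 0.3 and 1 mg/kg stands in the first run alone and at 30 mg/kg in the second alone. PFO4DA at these doses spans both runs, and the run was not fitted in this comparison. In maternal liver a larger rise under PFO5DoA was called for Cpt2 from 1 mg/kg and for Cpt1b at 10 and 30 mg/kg. Each rise is taken against its own controls, which for maternal Cpt2 had means of 33.0 CPM for PFO5DoA and 46.0 CPM for PFO4DA. At 0.3 mg/kg edgeR called 0 of the 3 genes, against 0% of 10951 tested genes. At an unadjusted p under 0.05, 1 of the 3 passed, against 710 of all genes, and DESeq2 called 0, against 3 of all genes. At 1 mg/kg 1 of the 3 was called, against 0.128% of all genes, at 3 mg/kg 1 of the 3, against 0.804%, at 10 mg/kg 2 of the 3, against 8.55%, and at 30 mg/kg 2 of the 3, against 20%. The difference for Cpt2 was 1.27 (SE 0.24, adjusted p = 0.0042) at 1 mg/kg, 1.73 (SE 0.23, adjusted p = 2.08e-06) at 3 mg/kg, 1.78 (SE 0.23, adjusted p = 5.92e-07) at 10 mg/kg and 1.25 (SE 0.23, adjusted p = 0.000103) at 30 mg/kg. For Cpt1b it was 2.68 (SE 0.56, adjusted p = 0.00179) at 10 mg/kg and 4.53 (SE 0.56, adjusted p = 1.33e-07) at 30 mg/kg, which is 23.2-fold. Uncalled differences at the dose below were 0.85 (95% interval 0.37 to 1.32) for Cpt2 at 0.3 mg/kg and 1.28 (0.15 to 2.41) for Cpt1b at 3 mg/kg. Their p in edgeR's test was 0.000958 and 0.0316 unadjusted, and 0.697 and 0.408 adjusted. Cpt1a differed by 1.02 (95% interval 0.16 to 1.87), 0.95 (0.10 to 1.80) and 0.70 (-0.15 to 1.55) at 3, 10 and 30 mg/kg, with adjusted p of 0.372, 0.162 and 0.265. The difference at 10 mg/kg passed the test without dam 2303 (1.45, adjusted p = 0.0386).

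In fetal liver Cpt1b alone of the 3 genes passed the test of the difference between chemicals. At 0.3 mg/kg edgeR called 0 of the 3, against 0.00852% of 11732 tested genes. At an unadjusted p under 0.05, 1 of the 3 passed, against 532 of all genes, and DESeq2 called 0, against 8 of all genes. At 1, 3, 10 and 30 mg/kg 1 of the 3 was called, against 0.707%, 1.56%, 4.07% and 13.6% of all genes. The difference for Cpt1b was 2.45 (SE 0.38, adjusted p = 9.12e-05) at 1 mg/kg, 3.21 (SE 0.37, adjusted p = 2.37e-07) at 3 mg/kg, 2.35 (SE 0.36, adjusted p = 3.69e-05) at 10 mg/kg and 1.71 (SE 0.37, adjusted p = 0.00107) at 30 mg/kg. For fetal Cpt2 the difference at 1 mg/kg was 0.66 (95% interval 0.24 to 1.09), with an unadjusted p of 0.00379 in edgeR's fit and an adjusted p of 0.141. For fetal Cpt1a it was 1.32 there (0.16 to 2.48), with an unadjusted p of 0.031 and an adjusted p of 0.282. Both of these intervals lie above 0, and neither difference passed the adjusted test. At 0.3 and 3 mg/kg the intervals held 0 for both genes, at -0.02 to 0.83 and -0.06 to 0.75 for Cpt2 and -0.13 to 2.21 and -0.51 to 1.72 for Cpt1a. For fetal Cpt2 the 95% interval was -0.39 to 0.42 at 10 mg/kg and -0.46 to 0.39 at 30 mg/kg. For fetal Cpt1a it was -0.76 to 1.46 and -1.28 to 1.04 at these doses, wide enough to hold a difference of the size of its own rise. No fetal interval for Cpt1a or Cpt2 at these 2 doses shows that the chemicals act alike.

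**Figure D4:**
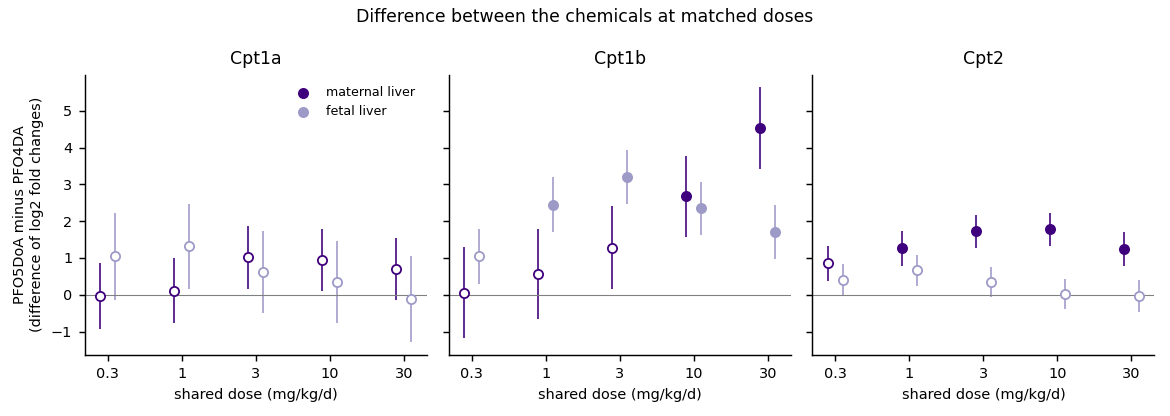
Difference in log2 fold change, PFO5DoA minus PFO4DA, at the 5 shared doses (mg/kg/d) in maternal and fetal liver, with approximate 95% intervals of 1.96 standard errors. Filled points passed an adjusted p of 0.05 and open points did not. The maternal difference for Cpt1b climbs to 4.53 at 30 mg/kg, and the fetal one is highest at 3 mg/kg, at 3.21.

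Whether the slope on log2(dose + 1) differed between the livers was tested with the dam as a block, as the maternal slope minus the fetal slope. For PFO5DoA 1 of the 3 genes was called, against 20% of 11968 tested genes. Cpt2 had the steeper maternal slope, by 0.40 (SE 0.04, adjusted p = 3.65e-07), while Cpt1a differed by 0.14 (SE 0.08, adjusted p = 0.249) and Cpt1b by 0.15 (SE 0.14, 95% interval -0.12 to 0.42, adjusted p = 0.486). For PFO4DA 2 of the 3 were called, against 5.54% of 11610 genes. The Cpt1b slope was lower in maternal than in fetal liver, by -0.50 (SE 0.07, adjusted p = 2.69e-06), and the Cpt2 slope was higher, by 0.17 (SE 0.03, adjusted p = 0.000483). Cpt1a differed by -0.07 (SE 0.07, adjusted p = 0.682). The direction for Cpt1b thus was the opposite of that for Cpt2 within the same dams.

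The levels in the livers of a dam, as CPM of all counts without further scaling, show where these slopes led. Cpt1b was lower in the maternal than in the fetal library in 54 of 54 dams, Cpt2 in 47 and Cpt1a in 38. For Cpt2 the ratio of maternal to fetal level had a median of 0.377 in the PFO5DoA controls, 0.517 at 0.3 mg/kg, 0.508 at 1 mg/kg, 0.782 at 3 mg/kg, 1.06 at 10 mg/kg and 1.44 at 30 mg/kg. All 3 dams at 30 mg/kg had the higher level in the maternal liver, and all 5 control dams the lower. Under PFO4DA that ratio had a median of 0.515 in controls and of 0.483, 0.515, 0.404 and 0.374 at 0.3, 1, 3 and 10 mg/kg. It was 0.816 at 30 mg/kg and 0.973 at 62.5 mg/kg, so it was lower than in controls at 3 and 10 mg/kg before it rose.

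For Cpt1b the fetal library exceeded the maternal one by a median factor of 4.79 in PFO5DoA controls, 9.61 at 0.3 mg/kg, 27.2 at 1 mg/kg, 28.4 at 3 mg/kg, 13.1 at 10 mg/kg and 3.17 at 30 mg/kg. The gap between the livers widened and then narrowed over this dose range. Under PFO4DA the factor was 5.19 in controls, 9.78 at 3 mg/kg, 23.8 at 10 mg/kg, 28.6 at 30 mg/kg and 46.6 at 62.5 mg/kg, with no narrowing within the doses given. The Cpt1a ratio of maternal to fetal level had a median of 0.625 in PFO5DoA controls. It was 1.06, 0.294, 1.15, 0.927 and 1.02 from 0.3 to 30 mg/kg PFO5DoA. Under PFO4DA it was 0.842 in controls and 1.19, 0.594, 0.486, 0.311, 0.515 and 0.642 from 0.3 to 62.5 mg/kg. Neither series moved in a single direction over dose, and control dams lay between 0.202 and 1.36.

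**Figure D5:**
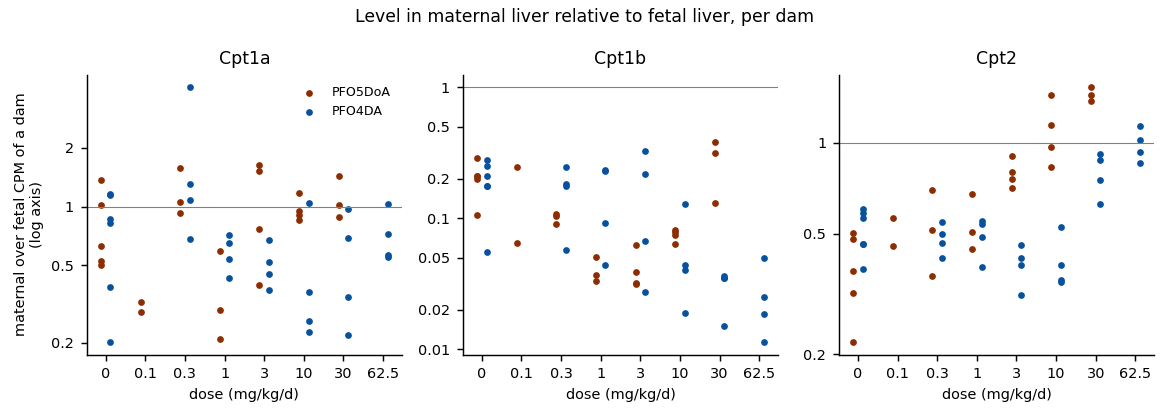
Ratio of the maternal to the fetal level in each dam (CPM of all counts, log axis) by dose (mg/kg/d), for PFO5DoA and PFO4DA. Each point is a dam, and life stage was assigned from expression. Cpt2 has a median of 1.44 at 30 mg/kg PFO5DoA, against 0.377 in controls, and Cpt1b under PFO4DA reaches a median of 0.0219 at 62.5 mg/kg.

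Within a dose, with the 2 runs pooled, the livers of a dam and of her fetus deviated together for Cpt1b under PFO5DoA. Deviations of log2(CPM + 1) from the dose mean correlated with r = 0.60 (adjusted p = 0.0245) and rho = 0.63 (adjusted p = 0.0418) over 22 dams, by a permutation test that shuffled dams within doses 100000 times, adjusted over 6 relations (3 genes, 2 chemicals). The value of r was 0.63 without the 2 dams farthest from the median and 0.51 within dose and run, which was not tested. The shuffles crossed the 2 runs, so a deviation shared by a run and one shared by a dam cannot be told apart by this p. At 10 mg/kg both second-run dams exceeded both first-run dams in either liver. The other 5 relations did not pass, with r of 0.42 and 0.13 for Cpt1a and Cpt2 under PFO5DoA and 0.22, -0.33 and 0.27 for Cpt1a, Cpt1b and Cpt2 under PFO4DA (permutation adjusted p of 0.363 or more). Without the 2 farthest dams the value under PFO5DoA was 0.01 for Cpt1a and 0.50 for Cpt2. Within dose and run the Cpt2 value was 0.35 under PFO5DoA and 0.58 under PFO4DA, so the Cpt2 values depend on the dams included and on the run.

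As a description of genes with a like pattern, the gene with the highest Pearson r to each member was sought over the 23 maternal PFO5DoA libraries, among 10615 tested genes. For Cpt2 it was ENSRNOG00000016692 (r = 0.97, and 0.93 over the 30 maternal PFO4DA libraries), and for Cpt1b it was ENSRNOG00000011404 (r = 0.963, and 0.628 under PFO4DA). For Cpt1a the highest r was 0.887, and 0.698 under PFO4DA. The genes next most alike to Cpt1b (r = 0.956 and 0.949) had r of -0.069 and 0.129 under PFO4DA. Those next most alike to Cpt2 had 0.83 and 0.938 under PFO4DA, and those to Cpt1a 0.815 and 0.756. These libraries share their doses and controls, so high values follow from any common response to dose.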

How the data were processed

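Maternal and fetal liver RNA was measured by TempO-Seq. The authors deposited a table of estimated counts per gene and library for each chemical, not normalized; 12.2% of the values for PFO5DoA and 11.8% for PFO4DA had decimals, and they were rounded here. Per the submitters' processing notes the build was mRatBN7.2 and the tools included STAR 2.7.8a, Partek and DESeq2, with no step assigned to any. All columns were mapped to dams through the dam identifier in their names. Groups come from the labels, and life stage from the expression rule given above, which uses values and not labels. The 3 genes, the lists and the tests were chosen with earlier results of these data known.

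The fits, with R 4.3.3 and edgeR 4.0.16, used filterByExpr by dose, TMM scaling, robust glmQLFit and glmQLFTest, 1 fit per chemical and life stage, with Benjamini-Hochberg adjustment over all genes of a contrast and a threshold of 0.05. The 0.1 mg/kg group was described only. A trend is the slope on log2(dose + 1). For the difference between chemicals both tables were fitted together, and the difference between livers was a difference of slopes with the dam as a block. Intervals span 1.96 standard errors on either side. This is a normal approximation, so they are somewhat narrower than the quasi-likelihood F test implies. Likeness to other genes was the Pearson r of log2(CPM + 1). The rule for named genes was to name the 3 members and, for each, the 3 most alike genes; with no symbols at most 2 IDs are given. Lists of pathway genes and cell type markers could not be looked up, since 0 of 20311 IDs matched the RefSeq gene table, and these lists are not reported here. The test steps were checked on simulated data.

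Alternatives were DESeq2 1.42.0 (limma 3.58.1 for the difference between livers), RLE scaling, no filter, each dose with its controls alone, the run of dams as a covariate, the replicate number as a block, the 0.1 mg/kg dams kept, the rank of the dose, both livers of a dam thinned to equal depth and summed, and leaving out each dam. Each run alone for PFO5DoA, the first run alone for PFO4DA and the dam 2279 library kept were added after seeing the data. The run as a covariate changed no call of the 3 genes in the dose comparisons and trends. It was not fitted for the differences between chemicals or between livers. Over 169 pairs of libraries within groups the lowest chi-square per degree of freedom was 14.7, so none was treated as a duplicate. Probe counts carry no molecular identifiers and probes differ in efficiency, so levels are not compared between genes.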

Additional observations from a re-analysis of the deposited data

Results flagged for a closer look

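In 4 of 63 groups of 4 to 10 libraries, 1 library lay far from the others by Dixon's test; chance alone does this in about 1 of 20 groups. Maternal Cpt1a of control dam 2295 of PFO4DA was 34.2 CPM, against 18.6 to 24.0 CPM in the other 5 controls. Fetal Cpt1b of control dam 2308 of PFO4DA was 3.13 CPM, against 7.79 to 10.4 CPM. Maternal Cpt2 of dam 2313 at 1 mg/kg PFO4DA was 62.1 CPM, against 45.8 to 46.5 CPM in the other 3 dams. Fetal Cpt2 of dam 2283 at 10 mg/kg PFO5DoA was 168 CPM, against 122 to 129 CPM; the same fetal library also held the highest Cpt1b of its group, 258 CPM.

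The response to dose differed between the livers in 3 tests of the difference itself (edgeR's quasi-likelihood test, dam as a block), given as the maternal slope minus the fetal slope on log2(dose + 1). It was 0.40 for Cpt2 under PFO5DoA, -0.50 for Cpt1b under PFO4DA and 0.17 for Cpt2 under PFO4DA.

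The 2 dams given 0.1 mg/kg PFO5DoA entered no test. Their fetal livers held 50.1 and 106 CPM of Cpt1a, above a highest control of 49.7 CPM, while the livers at 0.3 mg/kg, the next dose, held 15.5 to 69.3 CPM. Their maternal livers held 43.9 and 52.0 CPM of Cpt2, above a highest control of 42.3 CPM and within or below the range at 0.3 mg/kg (50.8 to 75.2 CPM).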

How the results depend on the processing

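Counts below are of member-by-dose tests, or of the 3 genes for a trend, at an adjusted p under 0.05. Leaving out each dam in turn, for PFO5DoA 9 to 10 of 15 tests passed in maternal liver (10 with all dams) and 10 to 13 in fetal liver (13), with 3 maternal trends throughout and 1 to 2 fetal trends (1). For PFO4DA 3 of 18 maternal tests passed throughout and 5 to 8 fetal ones (8), with 2 maternal and 3 fetal trends throughout. The difference between chemicals gave 6 to 7 maternal (6) and 4 fetal tests, and the difference between livers kept 1 test for PFO5DoA and 2 for PFO4DA over the 18 control and highest-dose dams left out; the dams in between were not left out there. The first run of dams alone gave 4 maternal and 6 fetal tests for PFO5DoA (7 and 10 at the same doses with all dams) and 2 fetal tests for PFO4DA (5), by construction with fewer dams. The fetal trend of PFO5DoA was called for 2 genes with DESeq2 and with the rank of the dose, and for 3 with both livers summed (1). Summed livers gave 8 tests for PFO4DA against 3 in maternal liver, and 8 differences between chemicals against 4 in fetal liver, since a sum holds both livers. For PFO4DA in fetal liver 5 tests passed when each dose was fitted with its controls alone (8); the cause was not tested.

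Numbers shared between dose groups do not pair the dams. The mean correlation of the deviations of same-numbered libraries was 0.021, 0.028, -0.019 and 0.002 in the 4 fits, with lowest values from -0.275 to -0.525. With the replicate number as a block the count was 10 and 13 for PFO5DoA, 2 for PFO4DA in maternal liver and 4 for PFO4DA in fetal liver. The calls that missed the threshold with this block were maternal Cpt1a at 62.5 mg/kg PFO4DA (1.51, adjusted p = 0.0522), fetal Cpt2 at 10 and 30 mg/kg PFO4DA (0.56 and 0.51, adjusted p = 0.0794 and 0.0639) and fetal Cpt1a at 30 and 62.5 mg/kg PFO4DA (1.03 and 0.92, adjusted p = 0.237 and 0.217). Without the dam as a block the difference between livers was called for 1 gene under PFO5DoA and 2 under PFO4DA.

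Called values changed sign in 0 alternatives. Values that had not been called changed sign as follows. With the dam 2279 library kept, maternal Cpt1b at 0.3 mg/kg PFO5DoA was -0.02. In the second run, maternal values under PFO4DA were -0.05 for Cpt1b at 0.3 mg/kg and 0.00 for Cpt2 at 3 mg/kg. In the first run, fetal values under PFO4DA were -0.16 for Cpt1b at 0.3 mg/kg and -0.01 for Cpt2 at 1 mg/kg. With livers summed, Cpt1b at 1 mg/kg PFO4DA was 0.21 and Cpt1a at 0.3 mg/kg PFO4DA 0.09, and the difference between chemicals was 0.54 for Cpt1a at 0.3 mg/kg, 0.26 for Cpt1a and 0.56 for Cpt2 at 30 mg/kg. With the replicate block, Cpt1a was -0.02 in fetal liver at 1 mg/kg PFO4DA, and its difference between chemicals was 0.04 in maternal liver at 0.3 mg/kg and 0.09 in fetal liver at 30 mg/kg. Without the filter the fetal difference for Cpt2 at 30 mg/kg was 0.00.

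Leaving out single dams moved these values across 0: under PFO5DoA at 0.3 mg/kg, maternal Cpt1b (-0.05 to 0.37) and fetal Cpt1a (-0.04 to 0.83); under PFO4DA, maternal Cpt1b at 0.3 (-0.12 to 0.33), 1 (-0.50 to 0.08) and 3 mg/kg (-0.32 to 0.49). The maternal difference between chemicals did so for Cpt1a at 0.3 (-0.42 to 0.32) and 1 mg/kg (-0.07 to 0.30) and for Cpt1b at 0.3 mg/kg (-0.21 to 0.31), and the fetal one for Cpt1a at 10 (-0.04 to 0.56) and 30 mg/kg (-0.51 to 0.28) and for Cpt2 at 10 (-0.10 to 0.16) and 30 mg/kg (-0.13 to 0.08). Among the other values of single genes, 3575 of those with a dam left out and 808 of those under other settings kept their direction and their side of the threshold, 70 and 33 lost a call and 2 and 21 gained one. Depth limits maternal Cpt1b most, at 5 to 28 counts in control libraries.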
